A study of Mus musculus with 12 samples.

Results

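The genes described here are targets of the transcription factor p53 in mouse embryonic stem cells, together with Trp53, the gene that encodes p53. They were taken as a list of 33 gene symbols covering feedback, growth arrest, apoptosis, stress signalling and DNA repair. All 33 were found among the 31641 genes of the deposited count table, and all 33 had counts high enough to be tested. The study profiled 4 stem cell lines by RNA-seq. WT-1 and WT-2 were wild type. Mut-1 and Mut-2 carried the genotype labelled Tin2 S341X, where Tin2 (gene symbol Tinf2) is a subunit of shelterin, the complex that caps telomeres. All 4 lines came from C57BL/6 blastocysts and were cultured in serum with LIF on feeder layers of mouse embryonic fibroblasts, without any drug or damaging treatment named in the labels. Each line gave 3 libraries, which the design calls technical replicates, so the spread between libraries is not that between independent cultures. Nothing in the labels says whether a line was cloned or whether both alleles carry the change.

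p53 is kept scarce by Mdm2, a ubiquitin ligase that marks it for destruction. Damaged DNA or uncapped telomeres activate the kinases ATM and ATR, which free p53 from Mdm2. p53 then binds response elements near its targets and raises genes that stop the cell cycle, start apoptosis, repair DNA and, through Mdm2 itself, shut the response off. Mouse embryonic stem cells hold abundant p53 and pass quickly through G1, and many of these targets are transcribed in them without added damage.

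The response element itself was visible in the promoters of 4 members. It consists of a pair of adjoining half-sites, each with a fixed C and G around a variable core. RefSeq promoters on GRCm38.p6, running from 250 bases before to 50 bases after a gene's start, were available for 25 of the 33 members. They were searched for the textbook p53 consensus element of 20 bases, both half-sites without a spacer between them, with the C and G of both half-sites required and at most 2 mismatches elsewhere. The consensus is its own reverse complement, so 1 scan covers both strands and no second motif was searched. The elements found are shown 5′ to 3′ in the direction of the gene, because these are the letters through which p53 is known to recognise its targets. Capitals mark the required C and G of each half-site.
Cdkn1a: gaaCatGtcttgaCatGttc
Ccng1: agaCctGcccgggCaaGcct
Gtse1: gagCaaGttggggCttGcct
Ckap2: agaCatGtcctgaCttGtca
The Cdkn1a element lies at chr17:29090928-29090947 on the plus strand, 29 bases upstream of the annotated gene, and differs from the consensus at 1 base. The Ccng1 element lies at chr11:40755462-40755481 on the minus strand, 151 bases upstream of the gene, also with 1 mismatch. The Gtse1 element lies at chr15:85859945-85859964 on the plus strand, begins 1 base before the RefSeq start and overlaps an exon, with 1 mismatch. The Ckap2 element lies at chr8:22186003-22186022 on the minus strand, 184 bases upstream of the gene, with 2 mismatches. Such a match was found for 4 of the 25 members (16%) and for 106 of the 27025 genes with a promoter in the same set (0.3922%). A match describes letters only, and a promoter without one says nothing about elements in introns or farther away. Ddb2, Perp, Pmaip1, Rrm2b, Tnfrsf10b, Trp53inp1, Xpc and Zmat3 had no entry in the promoter set.

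The libraries held 14766477 to 17891894 counts, and no member had fewer than 65 counts in any of them. Tinf2 itself was lower in every mutant library, at 19.7 to 30.1 CPM (counts scaled to library size by TMM) against 57.7 to 69.2 in wild type, and its log2 fold change on line totals was -1.30 (SE 0.11, adjusted p = 0.0652) by the edgeR test described next. All 10 embryonic stem cell markers were detected in every library, at a summed level of 6272 to 7214 CPM in wild type and 5366 to 6784 CPM in the mutants. On line totals 2 of the 10 were higher and 8 lower in the mutant lines. Markers of fibroblasts, the feeder cells, were higher in the mutant lines for 24 of 24 genes, with a summed level of 4427 to 6217 CPM in wild-type and 4934 to 10873 CPM in mutant libraries. Those of primitive endoderm were higher for 7 of 7 genes (20.3 to 41.0 against 29.4 to 67.8 CPM), and those of blood and macrophages for 7 of 7 (230.9 to 367 against 284 to 386 CPM). Among the blood and macrophage markers, 2 (Ptprc and Tyrobp) were too low to test. Counts of 0 in some library occurred for 1 endoderm marker and 2 blood and macrophage markers. The part of endoderm and blood cells in the members' values was not tested. In such bulk RNA, fewer cells of a type and less RNA per cell cannot be told apart. Of the pairs of libraries within a line, WT-1 replicates 1 and 2 were the most alike (chi-square per degree of freedom 1.63, against 11.5 to 40.6 for the other pairs within a line), so WT-1 carried less independent information than its 3 libraries imply.

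Between genotypes, no p53 target passed the test. Counts were summed over the libraries of a line, and edgeR was run on these totals, 2 lines a genotype, with its quasi-likelihood test and Benjamini-Hochberg adjustment over 18749 genes. The test called 0 of the 33 members at an adjusted p under 0.05, as it called 0 genes in all (0% of those tested). Higher and lower members were mixed: 18 (54.5%) had a log2 fold change above 0 and 15 below, beside 49.8% of all genes above 0. Their median was 0.02, against -0.00 for all genes tested, with extremes of -0.86 for Eda2r and 0.72 for Fas. At an unadjusted p under 0.05 there were 4 members higher (Tnfrsf10b, Plk2, Ephx1 and Fas) and 1 lower (Eda2r), 5 of 33 or 15.2%, beside 13.1% of all genes (9.17% higher, 3.88% lower). DESeq2 called Eda2r alone among the members, beside 359 of all genes (2.56%). A limma fit of all 12 libraries with the line as a random block called Eda2r and Tnfrsf10b, beside 226 of all genes (1.44%). Its estimated correlation between libraries of a line was -0.002, so it in effect treated the 12 technical replicates as independent samples. With the replicate number added to that fit Eda2r alone was called (103 of all genes, 0.656%), and with the fibroblast marker share added no member was (32 of all genes, 0.204%). When Mut-1 was left out, Mut-2 alone stood for the mutant genotype, and the median log2 fold change of the members was 0.17. Eda2r then had -1.14, Tnfrsf10b 0.80 and Plk2 0.72. With Mut-2 left out instead, the median was -0.065, and the 3 genes had -0.63, 0.30 and 0.23. A fit with 1 mutant line holds no spread between mutant lines, so its calls are not given.

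**Figure D1:**
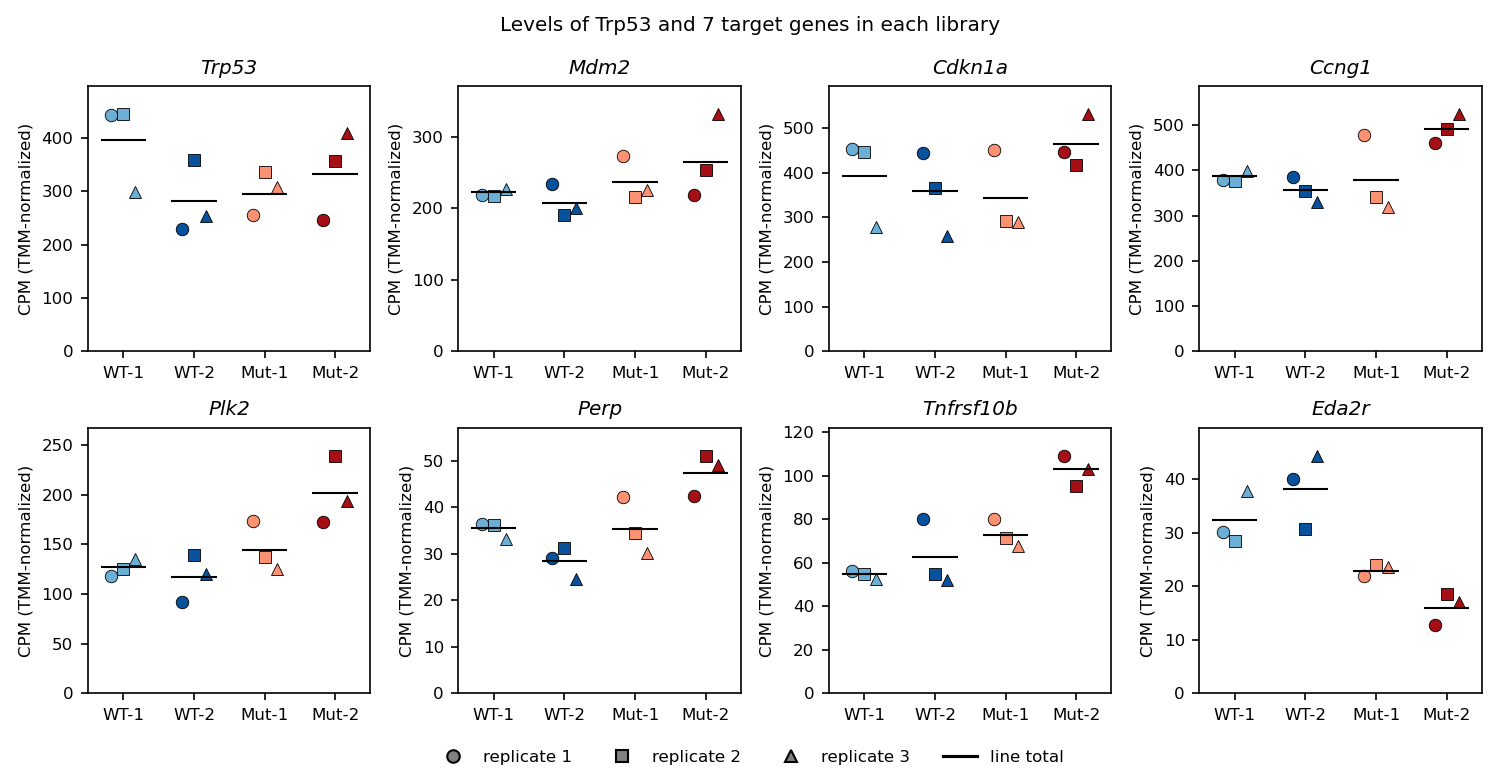
Level of Trp53 and 7 of its targets in the 12 libraries, in TMM-normalised CPM on axes that start at 0. The shape of a point gives the replicate number, the colour the line, and the bar the level of the line's summed counts. The Eda2r points of the mutant lines, 12.8 to 24.0 CPM, all lie under those of wild type, 28.5 to 44.3 CPM, and in the other 7 panels the genotypes overlap.

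Transcript levels of the members spanned a wide range. Per kilobase of exon, averaged over the 12 libraries, Ccng1 (115 CPM per kilobase) and Cdkn1a (109) stood highest and Trp53 followed at 81.2. At the other end, Rrm2b gave 2.84, Fas 3.65, Sesn1 4.56 and Eda2r 4.66 CPM per kilobase. Exons of Ddb2, Ei24, Ephx1 and Tigar overlap those of another counted gene, and with the strand setting of the counting not given, reads of those 4 members and of their partners cannot be told apart.

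Values per library are given in the order of replicates 1 to 3. For the factor itself, Trp53 gave 443, 444 and 299 CPM in WT-1, 229, 359.6 and 255 in WT-2, 256, 336 and 309 in Mut-1 and 246, 357 and 409.7 in Mut-2. Its libraries scattered as widely within WT-1 as between lines, and the genotypes overlapped. The line totals were 314 ± 26.7 CPM (SD, n = 2 lines) in the mutant lines and 339 ± 80.8 CPM in the wild-type lines, a log2 fold change of -0.11 (SE 0.16, adjusted p = 0.816). Mdm2, the ubiquitin ligase, gave 219, 217 and 227 CPM in WT-1, 234, 190.2 and 200.5 in WT-2, 274, 216 and 227 in Mut-1 and 218, 254 and 332 in Mut-2. Only Mut-1 replicate 1, Mut-2 replicate 2 and Mut-2 replicate 3 lay above every wild-type library. Mdm2's line totals were 251 ± 19.4 CPM (SD, n = 2 lines) in the mutant lines and 215 ± 10.2 CPM in the wild-type lines, a log2 fold change of 0.22 (SE 0.11, adjusted p = 0.429). Ccng1 encodes cyclin G1, a p53-induced partner in the control of Mdm2, and gave 379, 377 and 399 CPM in WT-1, 386, 355 and 329 in WT-2, 479, 342 and 319.9 in Mut-1 and 460.2, 491 and 524 in Mut-2. All Mut-2 libraries were above all wild-type libraries, while Mut-1 replicates 2 and 3 were within or below the wild-type range. Its log2 fold change between genotypes was 0.22 (SE 0.14, adjusted p = 0.534). Pidd1, a scaffold of the complex that activates caspase-2, ranged over 33.3 to 66.8 CPM with a log2 fold change of -0.14.

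Among the 5 members of growth arrest, 2 were higher and 3 lower in the mutant lines, with a median log2 fold change of -0.04. Cdkn1a encodes p21, the cyclin-dependent kinase inhibitor that carries much of p53's arrest, and its promoter holds the element printed first. It gave 452, 445 and 277 CPM in WT-1, 445, 365 and 258 in WT-2, 450.3, 292 and 289 in Mut-1 and 447, 418 and 530.1 in Mut-2. In WT-1, WT-2 and Mut-1 the lowest library lay far under the highest, Mut-2 had none as low, and the genotypes overlapped. The line totals were 403 ± 85.0 CPM (SD, n = 2 lines) in the mutant lines and 376 ± 23.7 CPM in the wild-type lines, a log2 fold change of 0.10 (SE 0.15, adjusted p = 0.813). Plk2, a polo-like kinase of the centrosome cycle, gave 118, 126 and 135 CPM in WT-1, 92.0, 139.5 and 121 in WT-2, 173, 137 and 125 in Mut-1 and 172, 238 and 194 in Mut-2. The 3 Mut-2 libraries and Mut-1 replicate 1 lay above every wild-type library, and the other 2 Mut-1 libraries did not. Plk2's line totals were 173 ± 40.6 CPM (SD, n = 2 lines) in the mutant lines and 122 ± 7.04 CPM in the wild-type lines, a log2 fold change of 0.50 (SE 0.16, adjusted p = 0.273). In limma it was 0.48 without and 0.30 with the fibroblast marker share as a covariate. Btg2, an anti-proliferative partner of the mRNA deadenylation complex, gave 99.5, 94.2 and 89.6 CPM in WT-1, 107, 85.8 and 74.3 in WT-2, 80.3, 68.5 and 65.1 in Mut-1 and 88.4, 95.9 and 145 in Mut-2. Its Mut-1 libraries were low and Mut-2 replicate 3 was the highest of all 12. Between genotypes its log2 fold change was -0.04 (SE 0.18, adjusted p = 0.945). Gtse1 and Ckap2, microtubule-associated proteins of dividing cells whose promoters also hold the element, had log2 fold changes of -0.18 and -0.22. They ranged over 141 to 264 CPM and 99.3 to 141 CPM.

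The 7 members that act in apoptosis within the cell had log2 fold changes between genotypes above 0 for 6 genes and below 0 for 1, with a median of 0.09 and none called. Perp (chr10:18845020-18857073, plus strand, GRCm38), a membrane protein of desmosomes that p53 induces in apoptosis, gave 36.3, 36.3 and 33.2 CPM in WT-1, 29.0, 31.2 and 24.5 in WT-2, 42.2, 34.4 and 30.1 in Mut-1 and 42.5, 50.9 and 49.1 in Mut-2. All Mut-2 libraries were above every wild-type library, and of Mut-1 only replicate 1 was. The line totals of Perp were 41.4 ± 8.55 CPM (SD, n = 2 lines) in the mutant lines and 31.9 ± 5.02 CPM in the wild-type lines, a log2 fold change of 0.37 (SE 0.18, adjusted p = 0.417). In limma it was 0.36 without the fibroblast marker share and 0.21 with it. Aen, a nuclease of apoptotic cells, gave 92.2, 95.3 and 87.9 CPM in WT-1, 72.8, 71.6 and 67.4 in WT-2, 104, 96.3 and 97.0 in Mut-1 and 96.1, 109 and 88.0 in Mut-2. Its WT-2 libraries were lowest, and WT-1 overlapped the mutant lines only through Mut-2 replicate 3. Aen's log2 fold change was 0.27 (SE 0.14, adjusted p = 0.453). Bbc3 encodes PUMA, a BH3-only activator of mitochondrial apoptosis, and gave 33.0, 39.7 and 30.3 CPM in WT-1, 64.3, 37.4 and 32.7 in WT-2, 24.6, 25.8 and 29.7 in Mut-1 and 33.0, 35.5 and 65.5 in Mut-2. Apart from WT-2 replicate 1 and Mut-2 replicate 3, which were alike and high, no library exceeded 39.7 CPM. Its log2 fold change was -0.18 (SE 0.23, adjusted p = 0.788). The others of these 7 members were the pore former Bax (0.10), the BH3-only gene Pmaip1 or NOXA (0.06), the apoptosome scaffold Apaf1 (0.09) and Ei24, a membrane protein of the endoplasmic reticulum (0.06).

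The 3 cell-surface receptors of the tumour necrosis factor family held the extremes of the list. Eda2r, the receptor of the ectodysplasin form EDA-A2, lies on the X chromosome (chrX:97333840-97377216, minus strand, GRCm38). It gave 30.1, 28.5 and 37.8 CPM in WT-1, 40.1, 30.8 and 44.3 in WT-2, 22.0, 24.0 and 23.6 in Mut-1 and 12.8, 18.6 and 17.0 in Mut-2. Every mutant library was below every wild-type library, and within the mutants Mut-2 was below Mut-1. Eda2r was the only member whose genotypes were fully apart over the 12 libraries, beside 2.14% of all genes tested (0.732% lower, 1.41% higher). Its line totals were 19.5 ± 4.86 CPM (SD, n = 2 lines) in the mutant lines and 35.3 ± 4.05 CPM in the wild-type lines, a log2 fold change of -0.86 (SE 0.19, adjusted p = 0.181). The direction was the same under all 23 alternatives run for the line totals, with log2 fold changes from -1.14 to -0.63. DESeq2 called it (adjusted p = 0.00219), as did limma with the line as a random block (adjusted p = 0.0190), but not limma with the feeder share added as a covariate (-0.75, adjusted p = 0.185).

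Tnfrsf10b, the death receptor for TRAIL, lies on chromosome 14 (chr14:69767472-69784411, plus strand, GRCm38). It gave 56.4, 55.0 and 52.8 CPM in WT-1, 80.0, 54.7 and 52.2 in WT-2, 80.2, 71.5 and 67.9 in Mut-1 and 109, 95.4 and 103 in Mut-2. Mut-2 was highest and Mut-1 intermediate, and WT-2 replicate 1 alone among wild-type libraries reached the level of Mut-1. The line totals were 87.8 ± 21.4 CPM (SD, n = 2 lines) in the mutant lines and 58.8 ± 5.27 CPM in the wild-type lines, a log2 fold change of 0.58 (SE 0.17, adjusted p = 0.246). The limma call of Tnfrsf10b (0.57, adjusted p = 0.0476) was lost with the replicate block (0.57, adjusted p = 0.0689) and with the fibroblast marker share (0.45, adjusted p = 0.347). Other genes around it were higher too. The 56 expressed genes (mean of at least 5 CPM) within 5 Mb of Tnfrsf10b had a median log2 fold change of 0.44 between genotypes, and the 384 expressed genes of chromosome 14 had a median of 0.37. For Eda2r the same median over 37 neighbours was -0.05, and for Perp it was 0.01 over 26 neighbours. The part of the higher values along chromosome 14 in that of Tnfrsf10b was not tested.

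Fas, the receptor for Fas ligand, was the member with the fewest counts and gave 4.21, 5.62 and 5.99 CPM in WT-1, 6.40, 6.60 and 5.29 in WT-2, 12.2, 4.76 and 4.03 in Mut-1 and 12.1, 13.5 and 9.55 in Mut-2. Mut-1 replicate 1 and the 3 Mut-2 libraries lay above all wild-type libraries, and Mut-1 replicates 2 and 3 were below the wild-type median. The log2 fold change on line totals was 0.72 (SE 0.26, adjusted p = 0.315). The share of counts on the 24 fibroblast markers was 1.14%, 0.568% and 0.473% in Mut-1, 0.987%, 1.07% and 0.642% in Mut-2, and 0.443% to 0.619% in wild type, so the libraries rich in Fas were also those rich in fibroblast markers. With that share as a covariate in limma, the log2 fold change of Fas was -0.01, against 0.59 without it. In Mut-2 against WT-2 it was 0.94 in edgeR's fit of the 12 libraries and 0.25 with the share as a term.

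Of the 9 members of stress signalling and metabolism, 5 were higher and 4 lower, with a median log2 fold change of 0.02. Ephx1, the microsomal epoxide hydrolase, gave 62.2, 61.4 and 77.4 CPM in WT-1, 90.7, 68.2 and 60.9 in WT-2, 101, 75.6 and 71.0 in Mut-1 and 109, 94.0 and 82.5 in Mut-2. As with Fas, Mut-1 replicate 1 and Mut-2 replicates 1 and 2 were highest, which are the 3 libraries with the highest fibroblast marker share. Ephx1's log2 fold change was 0.34 (SE 0.12, adjusted p = 0.309). In limma it was 0.33 without that share and 0.10 with it. Trp53inp1, a stress protein that feeds back on p53, gave 276, 269.9 and 265 CPM in WT-1, 287, 247 and 227 in WT-2, 235, 222 and 191 in Mut-1 and 269, 266 and 380.1 in Mut-2. Only Mut-2 replicate 3 lay above the wild-type range and Mut-1 replicates 2 and 3 lay below it. The others were the sestrins Sesn1 (-0.02) and Sesn2 (0.13), which restrain mTORC1, the fructose bisphosphatase Tigar (0.02), the secreted cytokine Gdf15 (0.22), the Akt inhibitor Phlda3 (0.13), the RNA-binding Zmat3 (-0.07) and the sugar reductase Dcxr (-0.05). In DNA repair, 1 was higher and 4 lower. The ribonucleotide reductase subunit Rrm2b (-0.07), the damage sensors Ddb2 (-0.08) and Xpc (-0.13), the endonuclease Ercc5 (-0.05) and the translesion polymerase Polk (0.02) all lay within 0.13 log2 units of no difference.

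Each mutant line was next compared with the wild-type line of its number, in 1 edgeR fit of the 12 libraries over 16533 genes. The pairs rest on the line numbers alone, so a difference within a pair also depends on which wild-type line it holds. The p-values of this fit measure the spread between libraries of a line and not between lines. Mut-1 against WT-1 called 0 of the 33 members, while it called 54 genes in all (0.327%). There, 14 members (42.4%, beside 53.1% of all genes) were higher and 19 lower, and their median log2 fold change was -0.06 beside 0.02 for all genes. At an unadjusted p under 0.05, 1 member was higher (Tnfrsf10b, 0.42) and 5 were lower (Eda2r -0.47, Gtse1 -0.44, Btg2 -0.41, Trp53inp1 -0.32 and Ckap2 -0.25), 18.2% of members beside 11.3% of all genes (6.47% higher, 4.81% lower). The 3 libraries of each line were fully apart for 7 members, 2 above (8.76% of all genes) and 5 below (7.56%). DESeq2 called 0 members in this pair.

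Mut-2 against WT-2 called 3 members, 9.09% of the list, beside 153 of all genes tested (0.925%). Perp and Tnfrsf10b rose, as did 0.732% of all genes, and Eda2r fell, as did 0.194%. At a log2 fold change of at least 1 as well, Eda2r alone was called, beside 0.46% of all genes. Perp had a log2 fold change of 0.75 (SE 0.15, adjusted p = 0.0348), with each Mut-2 library above each WT-2 library. Tnfrsf10b had 0.72 (SE 0.15, adjusted p = 0.0435), where its 56 neighbours had a median of 0.56. Eda2r had -1.25 (SE 0.18, adjusted p = 0.011). In WT-2 against WT-1 these 3 members had log2 fold changes of -0.32 (Perp), 0.19 (Tnfrsf10b) and 0.26 (Eda2r). Plk2 (0.78, SE 0.17, adjusted p = 0.054) and Aen (0.47, SE 0.11, adjusted p = 0.0585) lay just beyond the threshold. Of the 33 members 27 (81.8%, beside 49.9% of all genes) were higher and 6 lower, with a median of 0.23 beside -0.00 for all genes. At an unadjusted p under 0.05, 8 were higher and 1 lower, 27.3% beside 15.1% of all genes (9.67% higher, 5.45% lower). All Mut-2 libraries lay above all WT-2 libraries for 7 members (11.4% of all genes did so) and below for Eda2r alone (7.42%).

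These 3 calls depended on the libraries and terms used. With the replicate number as a block, 5 members were called, Plk2 and Aen being added, beside 328 of all genes (1.98%). With the fibroblast marker share as a term only Eda2r was called (-1.20, adjusted p = 0.0476), beside 58 of all genes (0.351%). Perp then had a log2 fold change of 0.60 (adjusted p = 0.130) and Tnfrsf10b one of 0.63 (adjusted p = 0.168). Leaving out WT-2 replicate 3, in which Perp, Aen and Tnfrsf10b had their lowest values, left 0 members and 10 of all genes called (0.059%), with Eda2r at -1.14 (adjusted p = 0.0524). Without any 1 of WT-1 replicate 1, WT-1 replicate 2, WT-2 replicate 2, Mut-1 replicate 2, Mut-1 replicate 3, Mut-2 replicate 2 or Mut-2 replicate 3, Eda2r was the 1 member called, beside 9 to 72 of all genes. WT-1 is not part of this pair but shares its estimate of the spread. Leaving out WT-1 replicate 1 or 2, the most alike libraries, gave 64 (0.378%) and 62 (0.366%) of all genes called. Leaving out WT-1 replicate 3 gave 229 (1.35%).

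**Figure D2:**
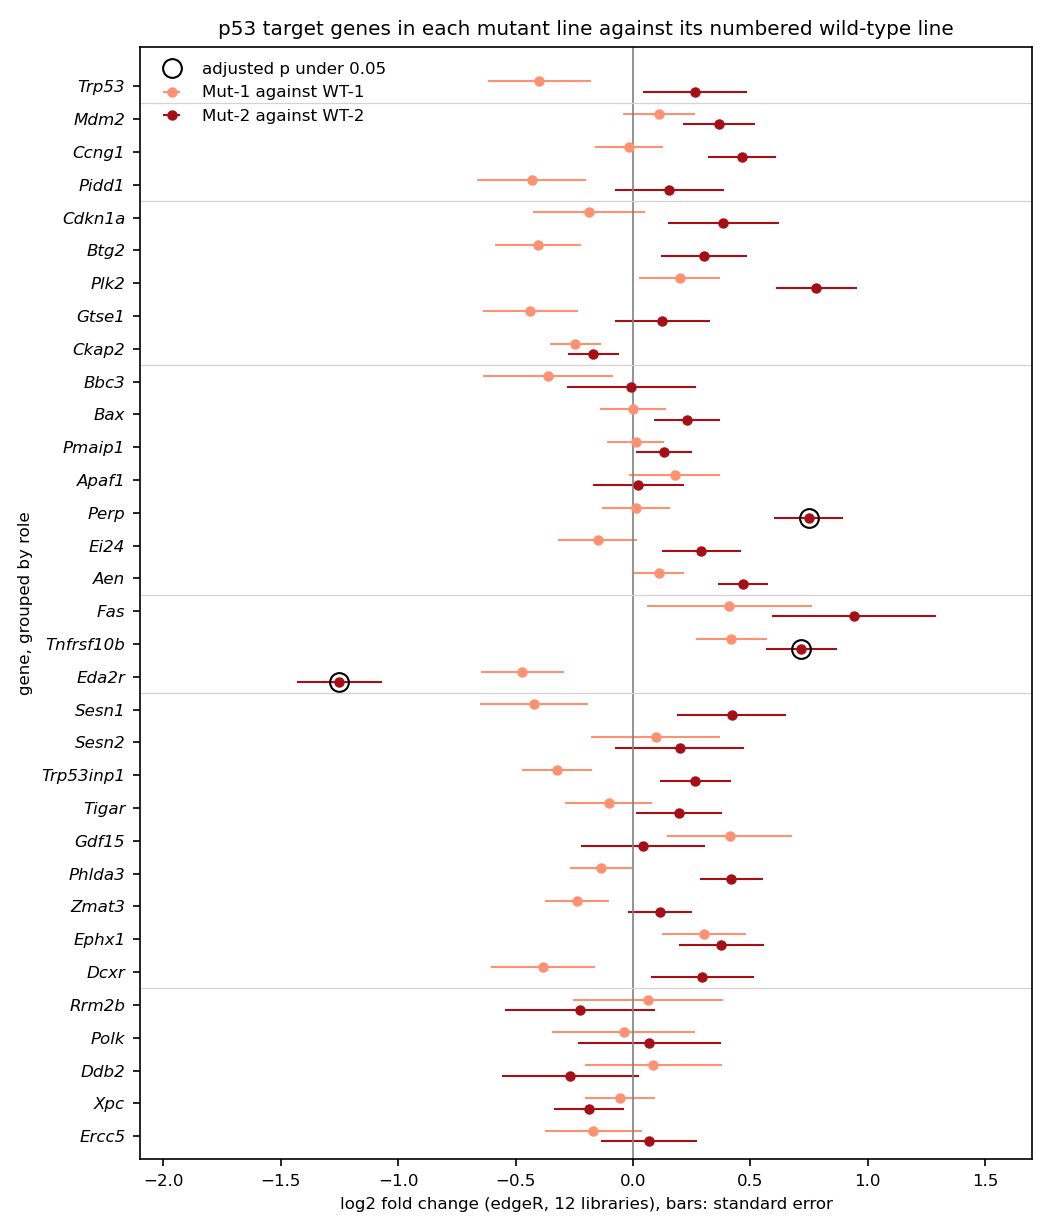
Log2 fold change of each p53 target, listed by role, in both pairs of lines (light points for Mut-1 against WT-1, dark points for Mut-2 against WT-2), with standard errors as bars and circles around values with an adjusted p under 0.05. Dark points lie right of 0 for 27 of 33 genes and light points for 14 of 33, and Eda2r is farthest left in both pairs.

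The lines of a genotype were also compared with each other. Mut-2 was above Mut-1 for 26 of the 33 members (52.9% of all genes), and their median was 0.30 on the log2 scale beside 0.02 for all genes. WT-2 was above WT-1 for 14 of 33 (51.8% of all genes), and their median was -0.09. No member was called in either comparison, beside 43 genes (0.26%) between the mutant lines and 3 genes (0.0181%) between the wild-type lines, and DESeq2 called 0 members in both. At an unadjusted p under 0.05, 10 members were higher and 1 lower between the mutant lines (33.3% of members). Of all genes 6.88% passed there, 3.24% higher and 3.65% lower. Between the wild-type lines 1 member was higher and 3 lower (12.1%), beside 7.61% of all genes, 4.17% higher and 3.44% lower. All Mut-2 libraries exceeded all Mut-1 libraries for 11 members, as for 5.5% of all genes, and were below them for Eda2r alone, beside 6.62%. WT-2 was fully above WT-1 for 1 member (6.97% of all genes) and fully below for 3 (5.92%). The largest differences above 0 between the mutant lines were those of Fas (0.74), Bbc3 (0.74), Btg2 (0.62), Trp53inp1 (0.50) and Tnfrsf10b (0.49).

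The difference of the differences, Mut-2 against WT-2 less Mut-1 against WT-1, was tested in the same fit. It called 0 of the 33 members and 12 genes in all (0.0726%), and DESeq2 likewise called 0 members. The median of the members was 0.35, beside -0.00 for all genes, with 27 above 0 (81.8%, beside 49.9% of all genes) and 6 below. At an unadjusted p under 0.05, 9 members were above 0 and 1 (Eda2r) below, 30.3% of members beside 8.07% of all genes (3.93% above 0, 4.15% below). Sesn1 (0.84, SE 0.33, adjusted p = 0.569), Perp (0.74, SE 0.21, adjusted p = 0.417) and Btg2 (0.71, SE 0.26, adjusted p = 0.555) had the largest positive values and Eda2r (-0.78, SE 0.25, adjusted p = 0.503) the most negative. These comparisons share libraries, since Mut-2 enters 3 of them, and so are not independent of each other.

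The members' overall level varied between libraries of a line as well as between lines. The median deviation of the 33 members from their own means on the log2(CPM + 0.5) scale was 0.07, 0.07 and -0.11 in WT-1, 0.18, -0.06 and -0.26 in WT-2, -0.02, -0.12 and -0.16 in Mut-1 and 0.14, 0.10 and 0.29 in Mut-2. The median of all genes stayed between -0.02 and 0.04. WT-2 alone thus covered most of the range of the 4 lines, and all Mut-2 libraries were positive while all Mut-1 libraries were negative. Mut-2 replicate 3 was the highest library for 11 members, among them Mdm2, Ccng1, Cdkn1a, Btg2, Bbc3 and Bax, and 10.8% of all genes were highest there. The lowest library was WT-2 replicate 3 for 9 members (8.93% of all genes) and Mut-1 replicate 3 for 8 (7.85%).

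**Figure D3:**
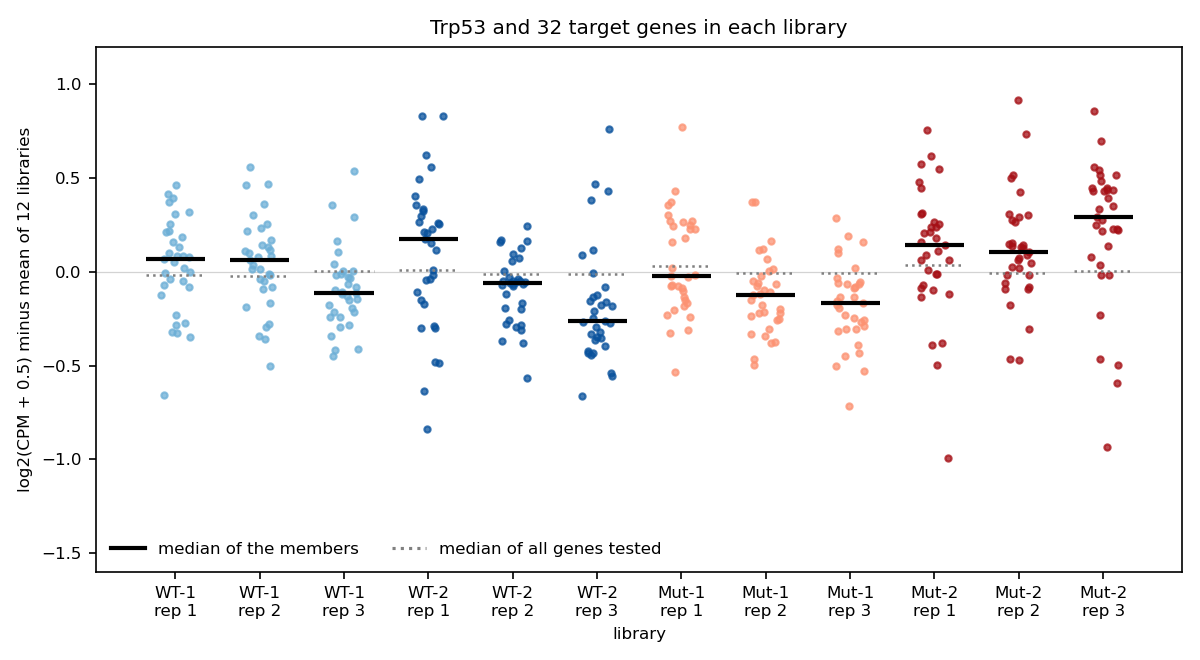
Deviation of each of the 33 genes from its own mean over the 12 libraries, on the log2(CPM + 0.5) scale, with 1 point per gene. Solid bars give the median of the 33 genes and dotted bars that of all genes tested. The solid bar is highest in Mut-2 replicate 3 (0.29) and lowest in WT-2 replicate 3 (-0.26).

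Neighbouring genes were examined for the other members too, after the Tnfrsf10b region had drawn attention in earlier results. Mdm2 on chromosome 10 had 33 expressed neighbours with a median log2 fold change of 0.33 in Mut-1 against WT-1 and 0.04 in Mut-2 against WT-2. Ckap2 and Gdf15 on chromosome 8 had neighbour medians of -0.21 and -0.22 in Mut-2 against WT-2, and of 0.21 and 0.16 in WT-2 against WT-1. The part of these regional shifts in the members' own values was not tested.

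**Figure D4:**
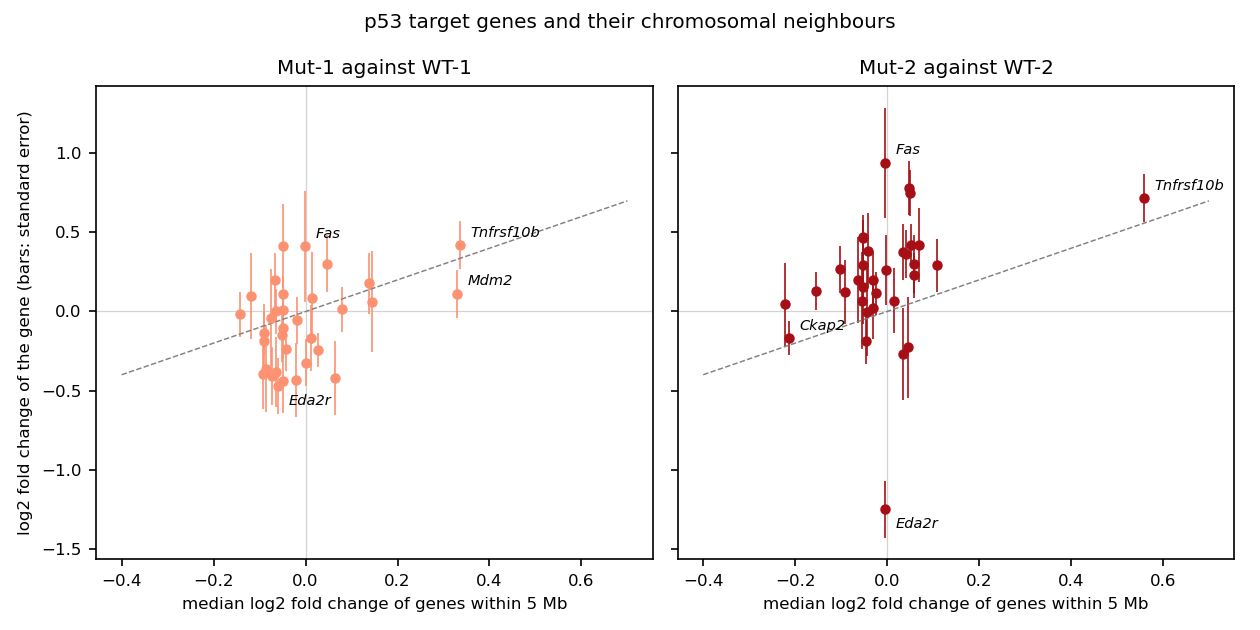
Log2 fold change of each p53 target (y axis, bars are standard errors) against the median of the expressed genes within 5 Mb of it (x axis), with 1 panel for each mutant line against the wild-type line of its number and a dashed line where both values are equal. Tnfrsf10b stands at the right of both panels, with neighbour medians of 0.34 and 0.56, and Eda2r lies near 0 on the x axis.

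Other genes of the pathway were taken from 3 further lists, and none was called on line totals (0 genes were called in all). Of 17 regulators of p53 tested, 4 were higher and 13 lower in the mutant lines, with a median log2 fold change of -0.13. Trp63, a relative of p53 in that list, was too low to test. The regulators with the smallest p were Cdkn2a (0.27), which encodes the Mdm2 inhibitor ARF, and the damage kinases Chek1 (-0.24), Atm (-0.24) and Prkdc (-0.20). Of 18 further p53 targets, 10 were higher and 8 lower, with a median of 0.13. Thbs1 (0.58), thrombospondin, is also abundant in fibroblasts, and Abhd4 (0.49), a lipase, lies on chromosome 14. The receptor tyrosine kinase Epha2 had 0.31. Abhd4 was the 1 gene of these lists called in any pair, in Mut-2 against WT-2 (0.74, SE 0.16, adjusted p = 0.0494). Of 12 cell-cycle genes that p53 lowers through p21 and the DREAM complex, 1 was higher and 11 lower, with a median of -0.19 beside -0.00 for all genes. The mitotic kinases Aurkb (-0.41), Bub1 (-0.27) and Plk1 (-0.23) and the cyclin Ccna2 (-0.25) had the smallest p, with Aurkb at an adjusted p of 0.274. In Mut-1 against WT-1 all 12 were below 0, and in Mut-2 against WT-2 8 of 12 were. Between the mutant lines, 11 of the 12 were higher in Mut-2 than in Mut-1, with a median of 0.12. In the difference of pairs 9 were above 0 and 3 below, with a median of 0.18.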

How the data were processed

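RNA-seq values of 12 libraries (3 from each of 4 mouse embryonic stem cell lines) were used. The authors deposited whole-number counts per gene, not normalised. The submitters' processing notes list the build GRCm38 and the tools HTSeq 0.6.0, HISAT2 2.1.0, Bowtie2 2.2.3 and bcl2fastq. The role of each tool, the gene models and strandedness were not given in the sources used here. Groups came from the labels.

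Counts were summed per line and the genotypes compared with edgeR 4.0.16 (R 4.3.3; TMM, filterByExpr, quasi-likelihood test, Benjamini-Hochberg adjustment at 0.05). Pairs of lines and the difference of pairs came from 1 such fit of the 12 libraries. Standard errors were derived from the F statistic. CPM are TMM-normalised. DESeq2 1.42.0, limma 3.58.1, other filters and scalings, and leaving out each library, line or the 3 libraries richest in fibroblast markers were alternatives. Deviations of same-numbered libraries from their line means had r = 0.695, 0.390 and 0.114 between WT-2 and Mut-2, so that pair is also given with a replicate block. Positions are from GENCODE M21. Scripts were tested on simulated data. Members and lists were chosen with earlier results of these data known. All members are named, with up to 4 genes by smallest p from each further list. 1 gene that this rule selects is not reported here.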

Additional observations from a re-analysis of the deposited data

Results flagged for a closer look

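The libraries of each member, and of Tinf2, were compared within 1 genotype (6 libraries each) by Dixon's criterion. In 7 of 68 such comparisons, 1 library stood apart from the other 5. The criterion's chance rate of about 1 of 20 holds for independent values from 1 population. The libraries of a genotype were technical replicates of different lines, so that rate does not apply and no excess over chance can be read from the 7. In WT-2 replicate 1, 5 members were high. Bbc3 reached 64.3 CPM there, against 30.3 to 39.7 in the other wild-type libraries. Tnfrsf10b reached 80.0 CPM against 52.2 to 56.4. Polk reached 61.7 CPM against 23.1 to 34.4. Apaf1 reached 84.0 CPM against 49.5 to 61.6, and Xpc reached 41.0 CPM against 31.2 to 34.4. Across all genes, 16% were highest in this library, the largest such share of the 12. In Mut-2 replicate 3, Bbc3 reached 65.5 CPM against 24.6 to 35.5 in the other mutant libraries, and Gtse1 reached 264 CPM against 141 to 182.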

How the results depend on the processing

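On line totals the members called were 0 in the main analysis and 1 with DESeq2 (Eda2r, beside 359 of all genes). They were 2 with limma and the line as a random block (226), and 0 to 0 when each library was left out (0 to 96). With a line left out, its genotype holds 1 line, so calls are not given there. The median log2 fold change of the members ranged from -0.065 to 0.17 over the lines left out. The log2 fold change of Fas was -0.0053 in limma with the feeder share. In Mut-2 against WT-2, 5 members were called without a filter (beside 966 of all genes), 5 with DESeq2 (689), 1 with the feeder share (58), 0 without the 3 libraries of highest feeder share (1, with the lone Mut-2 library assumed to vary like the others), 1 with a log2 minimum of 1 (76), and 0 to 4 when each library was left out (9 to 234). Without those 3 libraries Mut-2 holds replicate 3 alone, the library with the highest median deviation of the members (0.29). The median log2 fold change was then 0.40 in this pair and 0.46 in Mut-2 against Mut-1. With Mut-2 replicate 3 left out instead, the median in Mut-2 against WT-2 was 0.10, beside 0.23 in the main analysis. Without the 3 libraries of highest feeder share, 2 members (Eda2r and Xpc) did not overlap between genotypes, beside 6.62% of all genes. Over single libraries left out, that last number was 1 to 2, with Tnfrsf10b added without WT-2 replicate 1 (2.78% of all genes) and Aen without Mut-2 replicate 3 (3.82%). In Mut-2 against Mut-1, 2 members (Bbc3 and Btg2) were called without a filter (beside 270 of all genes) and 0 to 1 with each library left out (Fas without Mut-1 replicate 1, beside 41). The median difference of pairs ranged from 0.28 to 0.52 over libraries left out. The replicate block gave 5 members in Mut-2 against WT-2 (328 of all genes) and 1 (Eda2r, 103 of all genes) in the limma fit of genotype, and changed no other call among the members. Deviations of same-numbered libraries had r = -0.13, 0.217 and 0.104 between WT-1 and Mut-1. Between WT-1 and WT-2 r was 0.194, 0.368 and 0.621, and between WT-2 and Mut-1 0.404, 0.391 and 0.288. Between Mut-1 and Mut-2 it was 0.493, 0.139 and 0.344, and between WT-1 and Mut-2 -0.105, -0.260 and -0.288. Shared deviation was thus not particular to WT-2 and Mut-2.

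In the other comparisons the count of all genes called ranged over the alternatives from 16 to 543 in Mut-1 against WT-1, 0 to 201 in WT-2 against WT-1 and 0 to 302 for the difference of pairs. The cause was not tested. Technical replicates of 2 lines per genotype limit what the genotype comparison can show. No member had fewer than 65 counts in a library.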
